A study of Mus musculus with 4 samples.

Results

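The type I interferon response genes are a set of 39 genes, taken by symbol from the annotation of the array. Of these, 37 had at least 1 array feature, out of 19087 genes with a feature of their own, and together they held 58 features. Ifi44 and Dtx3l had none and were not analysed here. The cells were CD4+CD25- T lymphocytes, helper T cells largely free of regulatory T cells, taken from spleen in db/db and db/+ mice of the C57BL/6 strain. The db/db mice are homozygous for a germline mutation of the leptin receptor gene Lepr in every cell of the body and become obese, and the db/+ mice carry 1 functional copy and were labelled wild type. All cells had received antibodies against CD3 and CD28, the signals of the T cell receptor and its costimulator, for 12 h, and no unstimulated group was analysed here. Each group held 2 pools of cells from 3 mice, and the labels give neither age nor sex. Each pool was read on its own one-colour array.

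Type I interferons are secreted cytokines that signal through the receptor chains Ifnar1 and Ifnar2 and the kinases Jak1 and Tyk2. The transcription factor complex that results contains Stat2 and Irf9 and binds the interferon-stimulated response element in the promoters of its targets. The targets include sensors of foreign nucleic acids, enzymes that block viral replication and translation, and the peptide loading machinery of MHC class I, and in T cells the same programme is also known to restrain proliferation.

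The arrays differed in brightness, with a median raw intensity of 102 and 176 in db/db pools 1 and 2, against 254 and 151 in db/+ pools 1 and 2. After normalization the gene features correlated at r = 0.972 between the db/db pools, 0.975 between the db/+ pools and 0.946 to 0.967 between groups, across 33709 features that are not independent replicates. No feature of the set stood at the scanner maximum of 65535. The tables carry no gene names, and every name rests on a layout of the array grid that was inferred from the data. With this layout, features lay a median of 0.138 log2 units from the median of their transcript accession. The value was 1.1 when row numbers were read as feature numbers. That check used 2293 features of 218 accessions with at least 8 features each. No gene of the set had over 3 features, so the set itself was not checked in this way. Stretches of neighbouring spots departed between arrays by over 2 log2 units and were taken as misread. Such a stretch can also arise where a gene truly differs by that much between genotypes, so leaving stretches out depends in part on the genotype difference itself. The stretches held 18 of the 58 features, including every feature of Isg15, Isg20, Oasl1, Oasl2, Ifi27, Tap1 and Eif2ak2, which left 40 features of 30 genes. Of the labelled cell type, Cd3d, Cd3e, Cd3g, Cd4 and Cd28 were all above background in the 4 pools. Of these 5, none was called in the first or second fit, with Cd3d at 15.04 and 14.85 in db/db pools, against 13.87 and 14.27 in db/+ pools, and Cd3e at 11.61 and 11.95 in db/db pools, against 10.43 and 11.07 in db/+ pools. Cd4 read 9.94 and 9.99 in db/db pools, against 9.67 and 9.98 in db/+ pools. The CD8 T cell markers Cd8a and Cd8b1 were brighter than Cd4 in every pool. Cd5, another T cell marker, lay in a misread stretch and was called lower in the first fit (14.1-fold, adjusted p = 0.0385).

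Interferon response genes were more highly expressed in db/db than in db/+ cells. In the 30 genes outside misread stretches, read from their brightest feature, the median log2 level was 11.82 and 11.80 in db/db pools 1 and 2, against 10.77 and 10.79 in db/+ pools 1 and 2. The median log2 fold change, db/db over db/+, was 1.23 over these genes and 0.05 over all 16145 genes outside the stretches. Both db/db pools lay above both db/+ pools in 29 of the 30 genes, as in 36.5% of all genes outside the stretches. The exception was Oas1g, a member of the oligoadenylate synthetase family, which was below the background level of 7.55 in all pools. That level is the median log2 intensity over gene features. Both db/db pools were the higher in 48.1% of all 9186 genes above that level in at least 1 group. The 29 genes of the set above it had a median log2 fold change of 1.24, or 2.36-fold, against 0.20 over all such genes, and 18 of the 29, or 62.1%, exceeded 1 log2 unit, against 8.45% of all such genes. Where a group at background was set to that level, so that the fold is a bound, the shares were 58.6%, or 17 genes, and 7.91%. In bulk cells, more cells with an active response and more RNA per cell cannot be told apart.

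A feature was called where its adjusted p lay below 0.05 in a linear model fitted to all gene features. Called higher in db/db were 7 of the 58 features and 7 of the 37 genes, and none was called lower. The same fit called 0.578% of all gene features higher and 0.418% lower, and 0.629% of all genes higher and 0.21% lower. A second fit left out the misread stretches and called 24 of 40 features and 22 of 30 genes of the set higher and none lower, against 6.69% of all features higher and 1.51% lower, and 7.49% of all genes higher and 1.57% lower. The rule for misread stretches removes spots for their spread and so lowers the spread left for the test. When the spots outside the stretches were also normalized again, 21 of 40 features and 19 of 30 genes were called higher, and none lower, against 4.32% of all features higher and 3.24% lower, and 4.96% of all genes higher and 3.23% lower. That step also moved the split over all features to 1101 higher and 826 lower, against 1705 higher and 384 lower without it, and lowered the median log2 fold change of the 30 genes to 0.99. Of the 7 genes called in the first fit, Stat2, Ifit3, Mx2 and Dhx58 were not called under median scaling (adjusted p = 0.0605 to 0.204) or cyclic loess (adjusted p = 0.0559 to 0.0745). Of the 22 in the second fit, Oas1a, Tap2, Cmpk2, Ifi35, Lgals3bp and Tapbp were not called under median scaling of the spots outside the stretches (adjusted p = 0.0785 to 0.49), and Oas1a, Oas2, Tap2 and Cmpk2 under cyclic loess (adjusted p = 0.0514 to 0.207). No gene of the set was called in the first fit or the second when any of the 4 pools was left out, namely db/db pool 1, db/db pool 2, db/+ pool 1 or db/+ pool 2. The median log2 fold change of the 30 genes was then 1.11 to 1.19 in either fit. Over all fitted features the median was 0.009 to 0.036 in the first fit and 0.027 to 0.069 in the second. With 2 pools against 2, an exact permutation test of a single gene cannot give a two-sided p below 0.333.

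**Figure D1:**
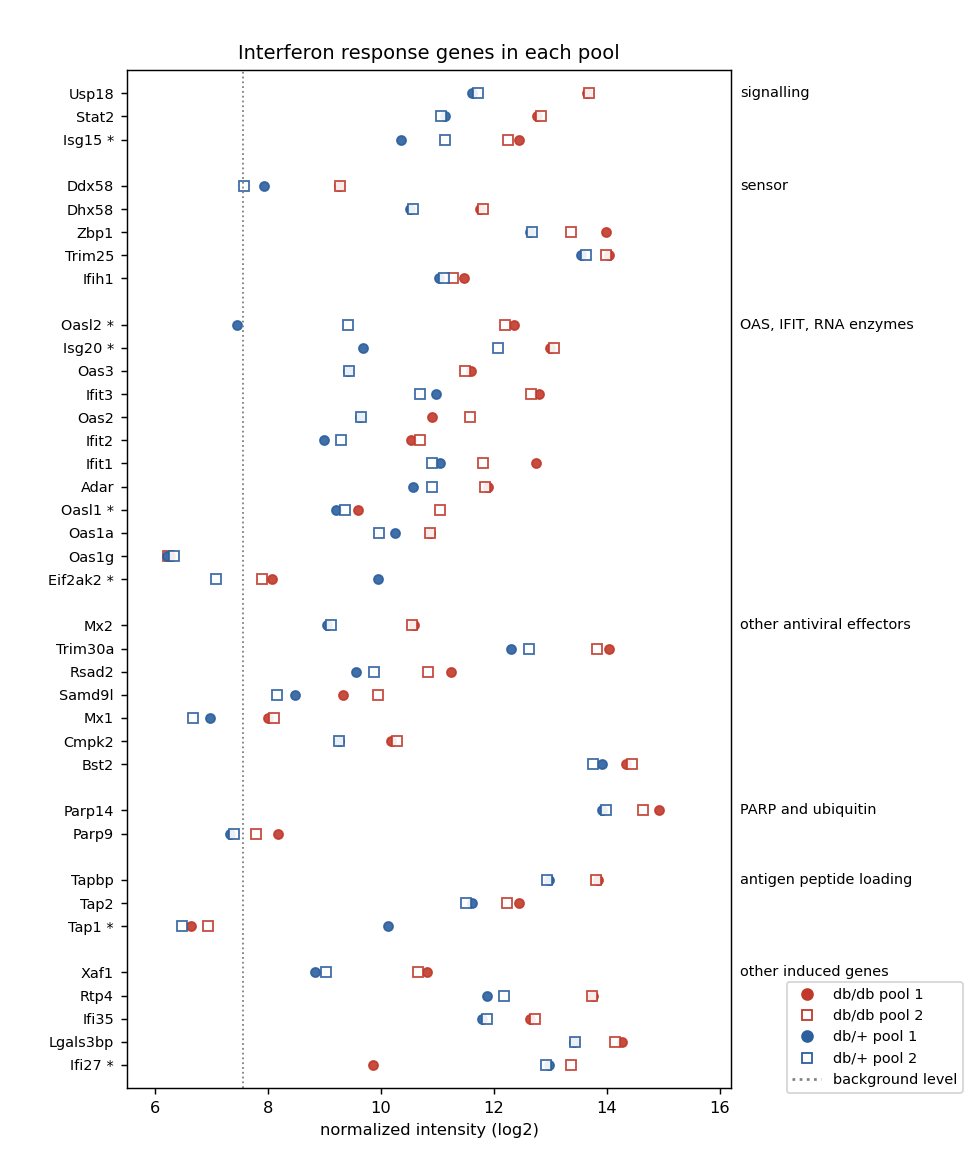
Normalized log2 intensity of 37 interferon response genes in each of the 4 pools, by role, with db/db in red and db/+ in blue, pool 1 as circles and pool 2 as open squares. Asterisks mark the 7 genes whose features all lie in misread stretches, and the dotted line is the background level of 7.55. In 29 of the other 30 genes both red symbols lie right of both blue ones.

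Promoter sequences were looked up for letters of the interferon-stimulated response element, because the set moved together. The core of this element, read as GAAA, any 2 bases and GAAA again, was searched on both strands in RefSeq windows of GRCm38.p6 that run from 250 bases before to 50 after a start site, and overlapping matches were each counted. Of the 39 genes, 28 had a window, and 13 of these, or 46.4%, held a match, against 3.99% of 27025 genes. In a list of further interferon-stimulated genes, 19 of 40, or 47.5%, held one. Among 14 genes with a window that were called higher in the second fit, 7 held a match, near the 46.4% of all 28 with a window. The 28 include these 14 and genes that the second fit could not call. Ifi44 and Dtx3l had no feature, and Isg15, Isg20, Oasl1, Oasl2, Tap1 and Eif2ak2 lay in misread stretches. The shares therefore do not set called genes against genes that were tested and not called. The 7 called genes with a match are printed below in the direction of transcription with the match in capitals, which reads as TTTC, any 2 bases and TTTC where the core is on the opposite strand. Flanking bases after a match are shown only up to the start site.
Oas3, chr5:120777700-120777759, minus strand: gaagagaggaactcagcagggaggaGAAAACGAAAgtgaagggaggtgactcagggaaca
Ifit3, chr19:34583348-34583441, plus strand: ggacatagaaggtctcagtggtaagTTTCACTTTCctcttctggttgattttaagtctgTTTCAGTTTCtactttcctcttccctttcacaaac
Stat2, chr10:128270251-128270310, plus strand: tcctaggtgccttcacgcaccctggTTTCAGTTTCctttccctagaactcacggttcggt
Ddx58, chr4:40239814-40239848, minus strand: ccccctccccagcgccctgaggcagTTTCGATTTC
Trim30a, chr7:104465195-104465254, minus strand: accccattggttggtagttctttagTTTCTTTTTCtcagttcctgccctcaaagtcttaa
Rsad2, chr12:26456538-26456597, minus strand: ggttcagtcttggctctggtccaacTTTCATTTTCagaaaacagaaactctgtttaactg
Oas1a, chr5:120907526-120907570, minus strand: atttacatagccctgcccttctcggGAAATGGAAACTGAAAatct
Counted from the start site, the match began at base -75 in Oas3, -222 in Stat2, -120 in Rsad2 and -36 in Trim30a. Ifit3 had 2 separate matches, at -156 and -122. Oas1a had 2 that overlapped, at -20 and -14, and the match in Ddx58 began at transcribed base 3. A match is a description of these letters and not a shown binding site.

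**Figure D2:**
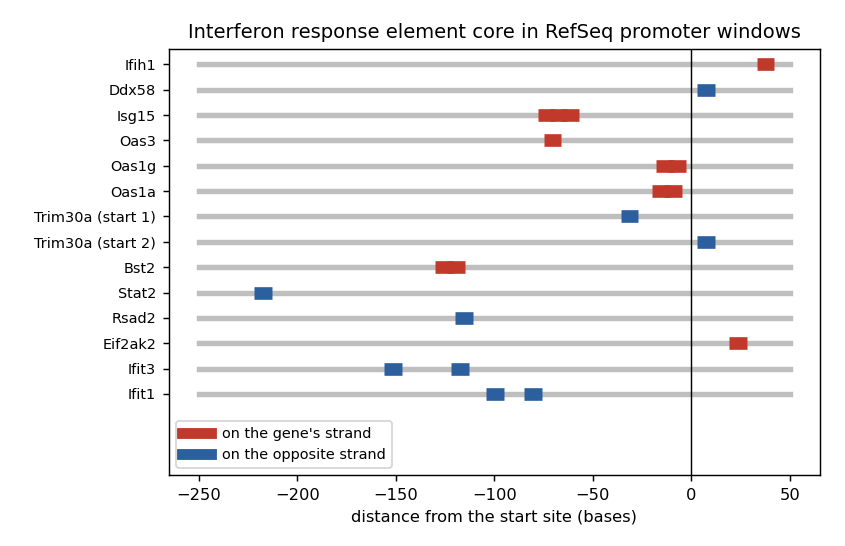
Position of the core of the interferon-stimulated response element in the promoter windows of the 13 interferon response genes that hold it, in bases from the start site, with matches on the strand of the gene in red and on the opposite strand in blue. Grey bars are the windows searched, and Trim30a has 2 annotated starts. Matches run from base -222 in Stat2 to base 33 in Ifih1.

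Stat2 and Usp18, which carry and limit the signal, were both called in both fits. Stat2, the subunit of the interferon-activated transcription factor that is particular to type I and type III interferon signalling, read 12.76 and 12.83 in db/db pools 1 and 2, against 11.13 and 11.06 in db/+ pools 1 and 2, on the log2 scale. The pools did not overlap, and each pair lay within 0.07 of its partner. Stat2 rose 3.26-fold, with a log2 fold change of 1.70 ± 0.09 (SE, n = 2 pools each). Each SE is that of the linear model, with the variance moderated over all gene features, and not that of the gene's own pools alone. Its adjusted p was 0.0377 in the first fit and 0.0133 in the second, the order used for every pair of p-values below, and the SE had a median of 0.13 over the 30 genes. Usp18, a protease that strips the modifier Isg15 from proteins and blocks signalling at Ifnar2, read 13.65 and 13.69 in db/db pools, against 11.61 and 11.72 in db/+ pools. It rose 4.02-fold (log2 fold change 2.01 ± 0.09, SE; adjusted p = 0.0324 and 0.0124), and its raw intensity was 8150 and 16107 in db/db pools 1 and 2, against 4762 and 3317 in db/+ pools 1 and 2. Before normalization, with db/db pool 1 the dimmest array and db/+ pool 1 the brightest, both db/db pools exceeded both db/+ pools in 12 of the 30 genes and in 5 of the 7 called in both fits, Usp18 and Stat2 among them. The share of all genes that did so on raw intensities was not computed, so these counts cannot be set against the rest of the array. Isg15 itself, the ubiquitin-like modifier, had a single feature that lay in a misread stretch. It read 12.44 and 12.24 in db/db pools, against 10.35 and 11.13 in db/+ pools, without overlap and without a call (adjusted p = 0.125 over all gene features).

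Of the sensors of foreign nucleic acids, the cytosolic RNA helicase Ddx58 (RIG-I) and its relative Dhx58 (LGP2) were called, and Ifih1 (MDA5) was not. Dhx58 read 11.75 and 11.80 in db/db pools, against 10.51 and 10.57 in db/+ pools, and rose 2.36-fold (adjusted p = 0.0444 and 0.0156). Ddx58 read 9.26 and 9.28 in db/db pools, against 7.93 and 7.57 in db/+ pools, a 2.87-fold higher level that the second fit alone called (adjusted p = 0.0655 and 0.0201). Its second feature was also called in that fit, at 7.51 and 7.77 in db/db pools, against 6.86 and 6.85 at background in db/+ pools, or at least 1.06-fold higher. The third was at background in both groups. Ifih1 read 11.47 and 11.27 in db/db pools, against 11.02 and 11.12 in db/+ pools. The gap between the nearest pools of Ifih1 was smaller than the gap within db/db, the adjusted p was 0.312 and 0.218, and the log2 fold change of 0.30 became 0.03 when the spots outside the stretches were normalized again. Zbp1, a sensor of nucleic acids in the Z form, had a log2 fold change of 1.01 with db/db pools 0.61 apart (adjusted p = 0.165 and 0.0691). Trim25, a ubiquitin ligase that acts on RIG-I, had one of 0.43 (adjusted p = 0.13 and 0.0722).

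The oligoadenylate synthetases make the second messenger that activates RNase L. Oas3 had the largest log2 fold change of the 30 genes, with 11.60 and 11.49 in db/db pools, against 9.42 and 9.44 in db/+ pools. It rose 4.34-fold (log2 fold change 2.12 ± 0.09, SE; adjusted p = 0.0315 and 0.0124), while a second feature of it was at background in both groups. Oas2 read 10.90 and 11.57 in db/db pools, against 9.62 and 9.65 in db/+ pools. The db/db pools of Oas2 were the more spread pair, and its 3.03-fold higher level was called in the second fit (adjusted p = 0.1 and 0.0339) but not after the spots were normalized again (adjusted p = 0.0630). Oas1a read 10.87 and 10.87 in db/db pools, against 10.25 and 9.97 in db/+ pools. That 1.70-fold higher level was likewise called in the second fit (adjusted p = 0.109 and 0.0432) and not after normalizing again (adjusted p = 0.210). The close relatives Oas1a, Oas1b, Oas1c and Oas1g may share signal, since the files hold no probe sequences by which to tell them apart. Oasl2 and Oasl1, synthetase-like proteins, lay in misread stretches. Oasl2 read 12.36 and 12.20 in db/db pools, against 7.46 and 9.41 in db/+ pools. Its log2 fold change of 3.84 was the largest of all 37 genes and was not called in the first fit (adjusted p = 0.121). Oasl1 read 9.60 and 11.04 in db/db pools, against 9.20 and 9.36 in db/+ pools (adjusted p = 0.431 in that fit). The spread within a genotype exceeded 1 log2 unit in both genes.

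Ifit proteins bind RNA that lacks the marks of host messengers and keep it from being translated. Ifit3 read 12.80 and 12.65 in db/db pools, against 10.97 and 10.69 in db/+ pools, and rose 3.73-fold (adjusted p = 0.0480 and 0.0148). Ifit2 read 10.53 and 10.69 in db/db pools, against 8.99 and 9.29 in db/+ pools, a 2.77-fold higher level called in the second fit (adjusted p = 0.0649 and 0.0201). The groups were apart in both genes by over 1 log2 unit between their nearest pools. Ifit1 read 12.74 and 11.80 in db/db pools, against 11.04 and 10.90 in db/+ pools. Its db/db pools lay 0.94 apart, and the log2 fold change of 1.31 was not called (adjusted p = 0.203 and 0.0916). Adar, which edits adenosine to inosine in double-stranded RNA, read 11.89 and 11.85 in db/db pools, against 10.57 and 10.91 in db/+ pools, and was 2.19-fold higher (adjusted p = 0.0807 and 0.0278). A brighter feature of Adar, in a misread stretch, read 13.66 and 13.60 in db/db pools, against 13.47 and 12.49 in db/+ pools. That feature was 1.57-fold higher and not called in the first fit (adjusted p = 0.462). Isg20, an exonuclease, and Eif2ak2, the kinase PKR that halts translation, lay in misread stretches where db/+ pool 1 and db/+ pool 2 differed by over 2 log2 units.

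Among the other antiviral effectors, 1 of 7 genes was called over all gene features and 5 in the second fit and after normalizing again. The shares of all genes called higher were 0.629%, 7.49% and 4.96%, in that order. Mx2, a dynamin-like GTPase, read 10.58 and 10.55 in db/db pools, against 9.04 and 9.11 in db/+ pools, and rose 2.81-fold (adjusted p = 0.0402 and 0.0139). Mx1, its relative, read 8.0 and 8.1 in db/db pools, against 6.97 and 6.68 in db/+ pools, which were at background. Mx1 was at least 1.41-fold higher and called in the second fit (adjusted p = 0.0695 and 0.0223). Inbred strains such as C57BL/6 carry a defective Mx1 allele, so its transcript is not matched by a working protein. Rsad2 (viperin), which makes a chain-terminating nucleotide, read 11.24 and 10.83 in db/db pools, against 9.55 and 9.88 in db/+ pools, a 2.50-fold higher level (adjusted p = 0.0979 and 0.0336). A second feature of it, at background in db/+, was also called in the second fit and at least 2.38-fold higher. Cmpk2, the nucleotide kinase encoded beside Rsad2, read 10.17 and 10.28 in db/db pools, against 9.26 and 9.25 in db/+ pools, or 1.96-fold higher (adjusted p = 0.0596 and 0.0204). The pools of Rsad2 and Cmpk2 did not overlap between genotypes. Trim30a, a mouse TRIM protein that dampens Toll-like receptor signalling, read 14.04 and 13.83 in db/db pools, against 12.31 and 12.62 in db/+ pools, and was 2.78-fold higher (adjusted p = 0.0676 and 0.0212). Another Trim30a feature, in a misread stretch, overlapped between genotypes, at 10.81 and 13.84 in db/db pools, against 13.11 and 12.37 in db/+ pools (log2 fold change -0.41). Samd9l, a suppressor of viral replication and cell growth, had a log2 fold change of 1.32 (adjusted p = 0.135 and 0.0518), and Bst2 (tetherin), which holds budding virus at the membrane, had one of 0.56 (adjusted p = 0.126 and 0.0585).

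Both genes of peptide loading outside the stretches were called in the second fit, which called 7.49% of all genes higher. Tap2, a subunit of the peptide transporter of the endoplasmic reticulum, read 12.45 and 12.23 in db/db pools, against 11.61 and 11.50 in db/+ pools. It was 1.72-fold higher (adjusted p = 0.0954 and 0.0369) and not called after normalizing again (adjusted p = 0.0789). Tapbp (tapasin), which ties the transporter to MHC class I, read 13.85 and 13.81 in db/db pools, against 12.98 and 12.94 in db/+ pools, and was 1.84-fold higher (adjusted p = 0.0613 and 0.0216). Both genes had groups without overlap. Tap1, the partner of Tap2, was read only in a misread stretch, where db/+ pool 1 stood at 10.12 and the other 3 pools below background.

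Among ADP-ribosyltransferases, Parp14 read 14.92 and 14.63 in db/db pools, against 13.91 and 13.98 in db/+ pools, and was 1.77-fold higher (adjusted p = 0.101 and 0.0389). Parp9, which works in a complex with the ubiquitin ligase Dtx3l, had 2 features that differed. The brighter one lay in a misread stretch and overlapped between genotypes, at 12.46 and 11.20 in db/db pools, against 12.21 and 12.10 in db/+ pools (log2 fold change -0.33). The dimmer one, outside the stretches and counted among the 30 genes, read 8.17 and 7.79 in db/db pools, against 7.32 and 7.40 at background in db/+ pools, and was not called (adjusted p = 0.188 and 0.0916).

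The remaining induced genes outside misread stretches were all called in the second fit, which called 7.49% of all genes higher. Xaf1, a partner of the apoptosis inhibitor XIAP, read 10.82 and 10.66 in db/db pools, against 8.83 and 9.03 in db/+ pools, and rose 3.52-fold (adjusted p = 0.0444 and 0.0146). Rtp4, a receptor transporter protein induced by interferon, read 13.75 and 13.74 in db/db pools, against 11.88 and 12.17 in db/+ pools, or 3.30-fold higher (adjusted p = 0.0506 and 0.0156). Both genes had over 1.5 log2 units between the nearest pools of the genotypes. Ifi35, which pairs with the interferon-induced protein Nmi, read 12.64 and 12.73 in db/db pools, against 11.78 and 11.88 in db/+ pools, and was 1.80-fold higher (adjusted p = 0.0679 and 0.0247). Lgals3bp, a secreted galectin-binding glycoprotein, read 14.27 and 14.14 in db/db pools, against 13.41 and 13.44 in db/+ pools, and was 1.72-fold higher (adjusted p = 0.0746 and 0.0284). Ifi27 lay in a misread stretch, where db/db pool 1 read 9.85 and the other 3 pools 12.92 to 13.36.

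**Figure D3:**
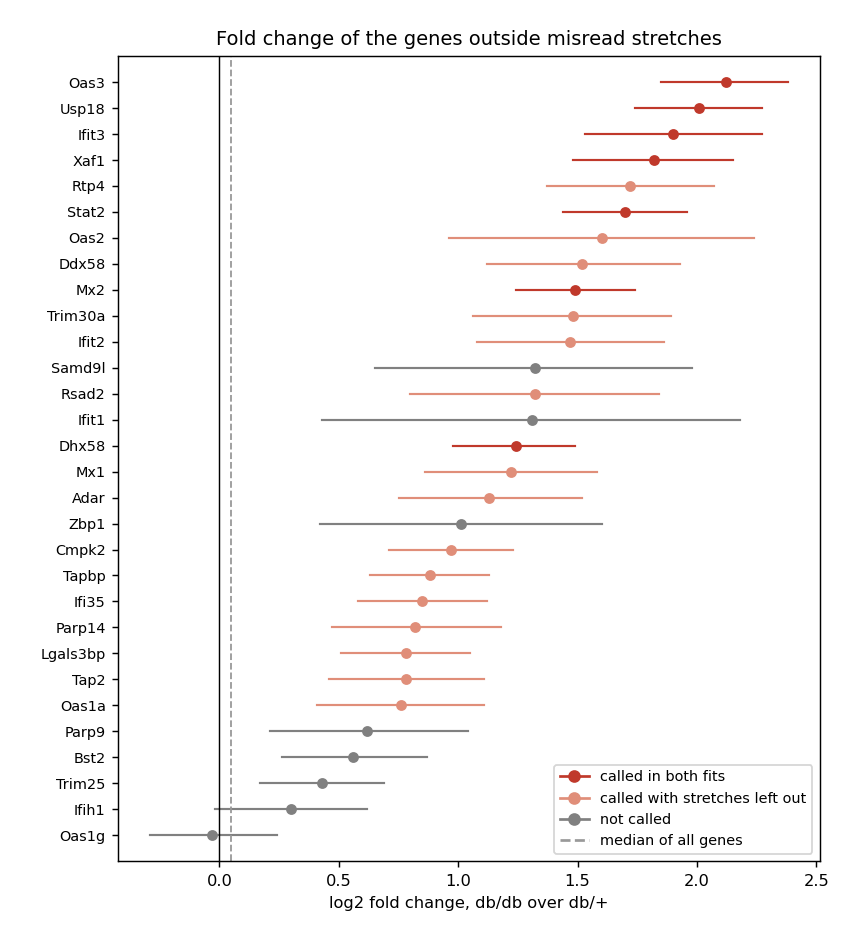
Log2 fold change, db/db over db/+, of the 30 interferon response genes outside misread stretches, with the 95% interval of the fit that leaves the stretches out. Dark red marks the 7 genes called in both fits, light red those called with the stretches left out and grey those not called. Values run from -0.03 for Oas1g to 2.12 for Oas3.

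The 7 genes above background that the second fit did not call were Ifit1, Samd9l, Zbp1, Parp9, Bst2, Trim25 and Ifih1, with log2 fold changes of 0.30 to 1.32 and adjusted p of 0.0518 to 0.218. The SD between the db/db pools exceeded 0.4 log2 units in 4 of the 30 genes, namely Ifit1, Oas2, Samd9l and Zbp1, and the SD between the db/+ pools in none. Of these 4, Ifit1 and Zbp1 were higher in db/db pool 1, and Oas2 and Samd9l in db/db pool 2. Across the 29 genes above background, the log2 fold change and the db/+ level had a Pearson r of -0.34, a description across genes read on the same arrays. Of the 8 genes with more than 1 feature outside the stretches, 10 dimmer features were read, of which 8 were at background in both groups and 2, those of Ddx58 and Rsad2, were called higher in the second fit.

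**Figure D4:**
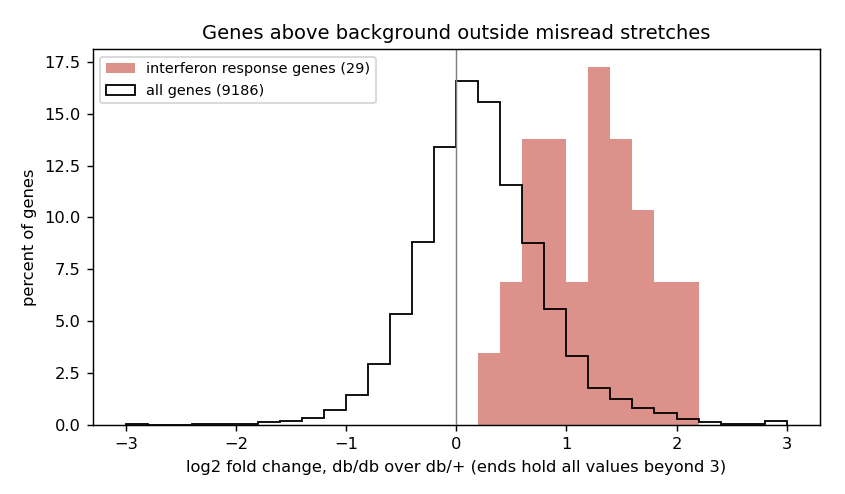
Log2 fold change, db/db over db/+, as percent of genes in bins of 0.2 units, for the 29 interferon response genes and for all 9186 genes above background and outside misread stretches. The interferon response genes run from 0.30 to 2.12 around a median of 1.24, while all genes have a median of 0.20.

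Other genes of the pathway were read from fixed lists, in each case from the brightest feature outside misread stretches. Of 12 receptor and signalling genes, 7 lay outside the stretches, with a list median log2 fold change of 0.72. The second fit called 1 of these, Jak1, higher, against 7.49% of all genes. Jak1, the receptor-bound kinase, read 14.74 and 14.49 in db/db pools, against 13.48 and 13.67 in db/+ pools (2.05-fold, adjusted p = 0.0828 and 0.0288). Ifnar2, a receptor chain, differed by 0.55 on the log2 scale (adjusted p = 0.13 and 0.0621), and the other chain, Ifnar1, was read only in a misread stretch. Irf9, the DNA-binding partner of Stat2, read 8.28 and 8.77 in db/db pools, against 7.34 and 7.87 in db/+ pools, and was not called (adjusted p = 0.231 and 0.114). Irf7, the factor that amplifies interferon production, was at background in the db/+ pools and had adjusted p of 0.189 and 0.0889.

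Transcripts of type I interferon itself were not seen above background. Of 11 measured interferon genes outside misread stretches, 10 were at background in both groups, among them Ifnb1, at 6.5 and 6.49 in db/db pools, against 6.41 and 6.72 in db/+ pools. The exception was Ifng, the type II interferon made by activated T cells, which read 15.50 and 15.46 in db/db pools, against 15.90 and 15.98 in db/+ pools, and was not called (log2 fold change -0.46 with 1 db/+ array at the scanner maximum, adjusted p = 0.119 and 0.0627). None of the 11 was called in the first or second fit.

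A list of 45 further interferon-stimulated genes gave 35 genes outside the stretches. Of these, 17 were called higher in the second fit and none lower, against 7.49% of all genes higher and 1.57% lower. Their median log2 fold change was 0.79. In the first fit 3 of all 43 measured were called higher, against 0.629% of all genes. The 4 with the smallest unadjusted p were Sp100, a nuclear body protein, Trim34a, a TRIM family protein, Ifit3b, a near copy of Ifit3, and Herc6, the ligase that attaches Isg15 in mouse. Trim34a read 12.44 and 12.59 in db/db pools, against 10.67 and 10.86 in db/+ pools, and rose 3.37-fold (adjusted p = 0.0444 and 0.0146). Ifit3b rose 3.34-fold (adjusted p = 0.0472 and 0.0150) and may share signal with Ifit3, and Sp100 rose 2.67-fold (adjusted p = 0.0440 and 0.0148). Herc6 was 2.20-fold higher (adjusted p = 0.0507 and 0.0173).

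In a list of 21 genes of the interferon-gamma response, 13 lay outside the stretches, 1 was called higher in the second fit and none was called after normalizing again. The shares of all genes called higher were 7.49% and 4.96%, in that order. The called gene was the T cell-specific GTPase Tgtp1, at 10.71 and 10.89 in db/db pools, against 9.97 and 10.08 in db/+ pools (1.71-fold, adjusted p = 0.0880 and 0.0336). The list had a median log2 fold change of 0.20, with 8 of 13 genes above 0. Gbp4, a guanylate-binding protein, and Ifngr2, a chain of the interferon-gamma receptor, had log2 fold changes of 0.56 and 0.37 (adjusted p in the second fit = 0.0947 and 0.109), and Gbp3 lay in a misread stretch. The difference between this list and the type I genes was not tested.

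**Figure D5:**
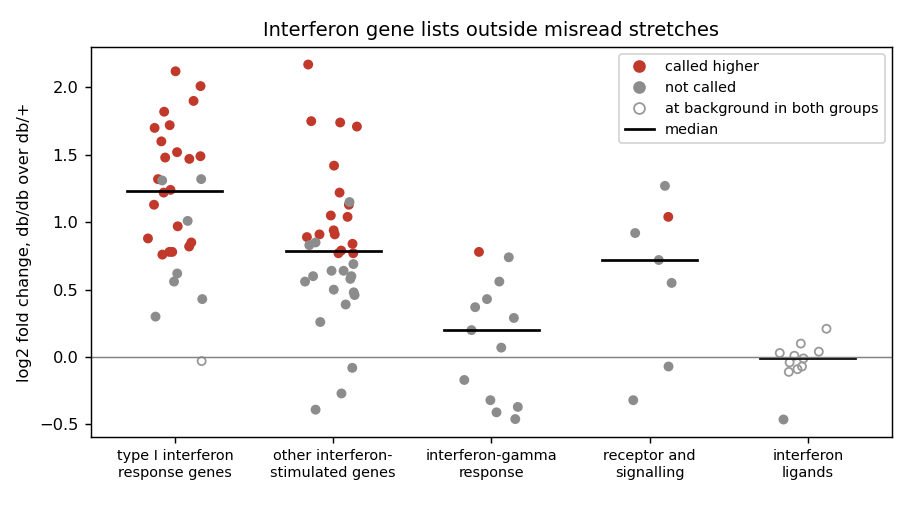
Log2 fold change, db/db over db/+, of each gene outside misread stretches in 5 interferon gene lists. Red points were called higher in the fit that leaves the stretches out, grey points were not called, open points were at background in both groups, and bars are medians. Medians stand at 1.23 for the type I response genes, 0.79 for the further interferon-stimulated genes, 0.20 for the interferon-gamma response, 0.72 for receptor and signalling genes and -0.01 for the ligands.

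Markers of other cells and of sex differed between the same pools as the interferon response genes, and their part in the result was not tested. The second fit called 7.49% of all genes higher and 1.57% lower, the shares to set beside each marker count here. Of 10 neutrophil markers outside the stretches, 6 were called higher in the second fit. The summed normalized intensity was 65318 to 69419 in db/db pools, against 7535 to 20475 in db/+ pools, with Cxcr2 at background throughout. Mpo and Retnlg overlapped between genotypes, with log2 fold changes of -0.86 and 0.32, and Elane, in a misread stretch, had one of -1.52. Of 9 B cell markers 4 were called higher, with sums of 14051 to 19518 in db/db pools, against 8448 to 11990 in db/+ pools, and Pax5, Blk and Cr2 at background. Both CD8 T cell markers, Cd8a and Cd8b1, were called higher, with sums of 27263 to 27407 in db/db pools, against 11504 to 14691 in db/+ pools. Cd8a read 13.32 and 13.27 in db/db pools, against 11.54 and 11.99 in db/+ pools. Cd8b1 read 14.07 and 14.08 in db/db pools, against 13.06 and 13.38 in db/+ pools. Both were above Cd4, which read 9.67 to 9.99 over the pools. Of 7 markers of plasmacytoid dendritic cells, known for making type I interferon, 3 were called higher, namely Spib, Tcf4 and Pacsin1, which B cells or other cells also express. Cox6a2 lay lower in db/db pools, at 10.87 and 10.26, against 10.92 and 11.07 in db/+ pools, without a call, and Ccr9 overlapped between genotypes. The sum of the 7 markers was 29658 to 29922 in db/db pools, against 19487 to 20744 in db/+ pools. Most of it in each pool was Bst2 of the present set, so this sum is not separate from the interferon response genes. Klk1 was at background, as was Siglech on a feature in a misread stretch. Of 7 macrophage and monocyte markers 1 was called higher, Adgre1, with sums of 80924 to 91629 in db/db pools, against 65979 to 69553 in db/+ pools, and C1qb at background. Most of these sums was Ly6c2, at or near the scanner maximum, and without it the 6 other markers summed to 24510 to 26228 in db/db pools, against 4801 to 10129 in db/+ pools. Most of what remained in each pool was Lyz2, which macrophages and neutrophils share. Lyz2 read 14.42 and 14.34 in db/db pools, against 11.31 and 12.67 in db/+ pools, and was not called (adjusted p = 0.141 and 0.053). Vcam1, Ccr2 and C1qc overlapped between genotypes, with log2 fold changes of 0.32, 0.04 and -0.02. None of 6 dendritic cell markers was called, with sums of 1550 to 1617 in db/db pools, against 2009 to 3337 in db/+ pools, and Flt3, Zbtb46, Clec9a and Cd209a at background. None of 5 NK cell and 2 erythroid markers was called in either fit, with sums of 34555 to 35169 and 9105 to 9492 in db/db pools, against 19646 to 32889 and 1935 to 4881 in db/+ pools. Most of the NK cell sum came from Gzma and Klrd1, which CD8 T cells also express, while Klrb1c read 8.25 and 8.10 in db/db pools, against 8.71 and 9.35 in db/+ pools, and was called lower after normalizing again (adjusted p = 0.0426). The Y-linked Eif2s3y read 13.95 and 13.77 in db/db pools, against 5.97 and 6.68 in db/+ pools, and Xist, the transcript that silences the X chromosome in female cells, read 10.06 and 6.60 in db/db pools, against 14.33 and 13.88 in db/+ pools. Genotype and the sex of the mice therefore cannot be told apart.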

How the data were processed

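Per the file headers, the deposited raw table holds 1 median foreground intensity per array feature, on a linear scale and with no background subtracted. The deposited value table holds log2 values, which matched quantile normalized log2 raw intensities to within 5e-09, and the submitters' processing notes name limma. With R 4.3.3 and limma 3.58.1, intensities of all 45220 features were corrected by normexp with an offset of 50, log2 transformed and quantile normalized. Each of 33709 gene features was then fitted with lmFit and eBayes, db/db minus db/+, and two-sided p-values were adjusted by the Benjamini-Hochberg method, with calls at 0.05. The pools come from 2 independent experiments per the labels, which do not tie the replicate numbers to them. The SE and p-values rest on a spread between pools that eBayes moderates over all fitted features, and the number of arrays limits the precision.

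A spot counted as off when it differed by over 2 log2 units between 1 array and the median of the remaining 3. Of 170 scan lines of 266 spots, 40 had over 5% of spots off on some array and were taken as misread, and so were windows of 15 spots that held 3 or more. This left out 24.5% of gene features and kept 25467. A gene was read from its brightest feature outside these stretches. A group was at background where both pools lay below the median over gene features, and a fold against it is a bound computed from that level.

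The members, the gene lists and the rule for misread stretches were chosen with earlier results of these data known. Every member with a called feature was given by pool, along with Stat2, Isg15, Ifit1, Ifit3, Mx1, Oas1a, Ddx58 and Ifih1, and up to 4 genes of each list by smallest unadjusted p. The fit was tested on simulated data. Alternatives were no background correction, median scaling, cyclic loess, misread stretches by differences within a genotype, a filter on dim features, a replicate block and each pool left out.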

Additional observations from a re-analysis of the deposited data

How the results depend on the processing

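Over all gene features 336 were called, 195 higher and 141 lower, with 126 higher and 270 lower under median scaling and 149 called under cyclic loess, 58 higher and 91 lower. The count was 2089 of 25467 features with the misread stretches left out and 2173 of 26735 with stretches defined within a genotype. It was 1927, 1952 and 1742 of 25467 when the remaining spots were normalized again by quantile, median scaling and cyclic loess. For the same 5 settings, the interferon response features called were 24, 25, 21, 20 and 19, against 7 of 58 in the first fit. These counts are out of 40 features, or 44 with stretches defined within a genotype. The genes called were 22, 23, 19, 19 and 18 of 30, or of 31 with stretches defined within a genotype, against 7 of 37. Under median scaling and under cyclic loess over all features, 3 features and 3 genes were called, and 4 of each with dim features left out. No setting called a feature of the set lower. Pools of the same number share only a number, and their deviations from the group means correlated at -0.0334. With the replicate block the counts were 0 features and 0 genes of the set and 0 of all features by limma, while 5146 features, 33 of the set, had an unadjusted p below 0.05. With the block and the stretches left out, 445 features, 11 features of the set and 10 of its genes were called. Leaving out any pool gave 0 to 0 calls in every count, with 5373 to 7565 features at an unadjusted p below 0.05, 32 to 36 of them in the set. The median log2 fold change of the 30 genes was 1.23, and 1.17 on the deposited values, 1.03 under median scaling, 1.05 under cyclic loess, 0.99, 0.97 and 1.01 when normalized again by quantile, median scaling and cyclic loess, 0.87 with all features of a gene averaged, and 1.11 to 1.19 without 1 pool, db/+ pool 1 giving 1.18. The sign turned for Oas1g, at background (0.09 under median scaling, 0.03 with the stretches left out as well, and -0.08 to 0.03 without 1 pool), Ifih1 (-0.003 with the stretches left out and median scaling) and 3 genes in misread stretches, Ifi27 (-3.10 to 0.42, 0.42 being without db/db pool 1), Tap1 (-3.33 to 0.32, 0.32 being without db/+ pool 1) and Eif2ak2 (-1.97 to 0.90, 0.90 being without db/+ pool 1). The causes were not tested.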
